A study of Mus musculus with 9 samples.

Results

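The transcripts described here are 879 assembled long noncoding RNAs (lncRNAs) that lay clear of every protein-coding gene of the GENCODE M21 annotation. These 879 were taken from 3729 assembled transcripts and 60108 transcripts of all kinds measured in mouse lung. They came from 771 loci, each named XLOC by the transcript assembler, and a locus with several transcripts is written here with a row number after a point. A transcript was taken when its mean over the 9 libraries was at least 0.1 FPKM (fragments scaled to transcript length and to the total of the library) and when its start and end overlapped no protein-coding gene body of GENCODE M21 on either strand. Of the 2417 assembled transcripts at or above that level, 1467 overlapped a coding gene on the opposite strand only, 66 overlapped one on the same strand and 5 lay on patch scaffolds without annotation. A further 378 intergenic transcripts fell below the level. The transcripts just inside it, XLOC_112893 and XLOC_000961, had means of 0.10002 and 0.10007 FPKM, and the highest ones outside, XLOC_107869 and XLOC_039905, of 0.099979 and 0.099712 FPKM.

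Each library was made from the lung of 1 male C57BL/6 mouse aged 6 to 8 weeks, with 3 mice per group. Control mice were intubated but not ventilated, whereas mice of both ventilator-induced lung injury (VILI) groups were ventilated for 4 hours with a high tidal volume of 20 ml/kg. Lungs of the VILI 0 hours group were taken at the end of ventilation, and those of the VILI 6 hours group 6 hours later, and these groups are written below as 0 hours and 6 hours. All mice were anaesthetized and intubated, and whole lung was used, so fewer cells of a type and less RNA per cell cannot be told apart.

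Long intergenic noncoding RNAs are transcribed from their own promoters or from enhancers, are often spliced, and are as a class less abundant and more restricted to certain cell types than mRNAs. Some act on neighbouring genes on the same chromosome, and a pair of divergent promoters can drive a noncoding and a coding transcript from one open region. In injured lung, stretch and inflammation induce transcription factors and stress genes within hours, and neutrophils enter the tissue, so the RNA of a whole lung can hold transcripts of resident and incoming cells. An intergenic transcript that starts near a gene of the injury response is therefore usually read beside that gene.

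The promoter windows of 6 loci are shown as examples, chosen after the values were seen: 5 have a transcript that differed between the groups at an unadjusted p under 0.05, and XLOC_015329 has rows that differed in direction. Other annotated windows belonged to transcripts with p-values as low. Sequences are from RefSeq (GRCm38.p6), each 300 bases long with 250 bases before and 50 after the annotated start, and were matched by an annotated start on the same strand near the 5′ end of the assembled transcript. The assembled 5′ end and the annotated start were 20 bases apart for XLOC_039306 and Gm33424 (chr13:52985715-52986014, plus strand), 142 for XLOC_138424 and Gm33504 (chr7:141004722-141005021, minus strand), and 22 for XLOC_024851 and 1600015H23Rik (chr11:109343675-109343974, plus strand). They were 35 bases apart for XLOC_135261 and Gm42376 (chr7:30394759-30395058, minus strand), 11 for XLOC_096742 and Gm33987 (chr3:121850894-121851193, plus strand), and 6 for XLOC_015329.1 and Gm40773 (chr10:117864407-117864706, plus strand). Capitals mark a match to TTGCNNAA on either strand, letters taken from the binding motif of C/EBP factors.
XLOC_039306 (Gm33424): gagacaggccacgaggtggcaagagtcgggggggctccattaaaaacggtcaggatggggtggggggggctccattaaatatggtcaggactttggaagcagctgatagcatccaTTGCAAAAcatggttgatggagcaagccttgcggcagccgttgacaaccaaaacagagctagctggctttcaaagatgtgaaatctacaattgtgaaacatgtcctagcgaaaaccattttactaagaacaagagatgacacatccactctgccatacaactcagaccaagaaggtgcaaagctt
XLOC_138424 (Gm33504): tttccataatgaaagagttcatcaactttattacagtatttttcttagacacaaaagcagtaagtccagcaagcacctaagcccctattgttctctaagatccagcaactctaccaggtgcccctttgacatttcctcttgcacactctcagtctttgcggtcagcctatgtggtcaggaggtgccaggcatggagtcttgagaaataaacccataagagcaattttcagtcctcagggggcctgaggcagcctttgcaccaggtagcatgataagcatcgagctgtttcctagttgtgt
XLOC_024851 (1600015H23Rik): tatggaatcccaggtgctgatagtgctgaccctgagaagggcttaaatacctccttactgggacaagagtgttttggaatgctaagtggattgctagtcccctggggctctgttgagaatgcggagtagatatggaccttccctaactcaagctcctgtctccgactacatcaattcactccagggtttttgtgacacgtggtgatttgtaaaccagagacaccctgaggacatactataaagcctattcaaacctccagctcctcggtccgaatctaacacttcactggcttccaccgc
XLOC_135261 (Gm42376): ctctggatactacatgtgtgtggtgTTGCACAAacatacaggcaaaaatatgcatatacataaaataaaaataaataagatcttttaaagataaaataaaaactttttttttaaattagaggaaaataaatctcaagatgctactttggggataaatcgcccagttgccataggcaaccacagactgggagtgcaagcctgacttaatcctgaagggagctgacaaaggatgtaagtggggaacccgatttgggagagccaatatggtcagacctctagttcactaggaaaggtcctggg
XLOC_096742 (Gm33987): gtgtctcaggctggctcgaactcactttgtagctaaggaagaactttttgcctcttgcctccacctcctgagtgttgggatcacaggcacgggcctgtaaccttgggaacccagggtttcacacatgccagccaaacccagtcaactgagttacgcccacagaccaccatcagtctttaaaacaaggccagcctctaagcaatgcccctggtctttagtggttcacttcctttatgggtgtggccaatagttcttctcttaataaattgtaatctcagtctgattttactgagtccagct
XLOC_015329 (Gm40773): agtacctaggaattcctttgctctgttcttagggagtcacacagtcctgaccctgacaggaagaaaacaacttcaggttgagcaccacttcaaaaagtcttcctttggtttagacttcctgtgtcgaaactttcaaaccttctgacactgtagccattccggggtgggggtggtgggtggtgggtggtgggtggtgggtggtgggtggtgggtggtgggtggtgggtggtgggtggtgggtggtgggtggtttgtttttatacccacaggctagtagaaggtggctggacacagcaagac
The window of XLOC_138424 is shown although its start is farther than 100 bases from the assembled one. The match began 135 bases before the annotated start in the window of XLOC_039306 and 225 bases before it in that of XLOC_135261.

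Such windows could be given to 102 of the 879 transcripts, whose 5′ ends lay within 100 bases of a RefSeq start and which shared 82 distinct windows. TTGCNNAA was found in 14.6% of these 82 windows, in 10.2% of 21262 coding promoters and in 10.8% of all 32851 promoters. TGANTCA, the letters of the AP-1 motif, was found in 8.54%, 6.99% and 7.81% of them, and GGGNNTTCC, from the NF-κB motif, in 3.66%, 6.30% and 5.82%. Both strands were searched, and the 3 motifs were counted separately even where matches overlapped. Only 9 of the 82 windows belonged to a transcript that was called higher than control at 0 or 6 hours, and 4 of these 9 held TTGCNNAA, a number too small for more than a description. The intergenic windows held a median of 4.5 CG dinucleotides against 13 in coding promoters, and the median GC content was 50.2% against 56.3%.

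The intergenic transcripts were scarce RNAs. Their median level was 0.257 FPKM, with quartiles of 0.163 and 0.400, and 46 of them (5.23%) reached a mean of 1 FPKM and 7 a mean of 10. The median was 0.212 FPKM for assembled transcripts on the opposite strand of a coding gene, 0.715 for 453 annotated lincRNAs and 1.86 for 32727 mRNAs, all taken at the same minimum of 0.1 FPKM. An exact 0 in at least 1 library was listed for 449 of the 879 (51.1%), compared with 63.4% of the assembled transcripts opposite a coding gene and 16.1% of annotated lincRNAs. Among transcripts under 0.5 FPKM the shares were 58.3%, 70.3% and 37.6%. In 72 transcripts more than 50% of the 9-library sum came from a single library.

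**Figure D1:**
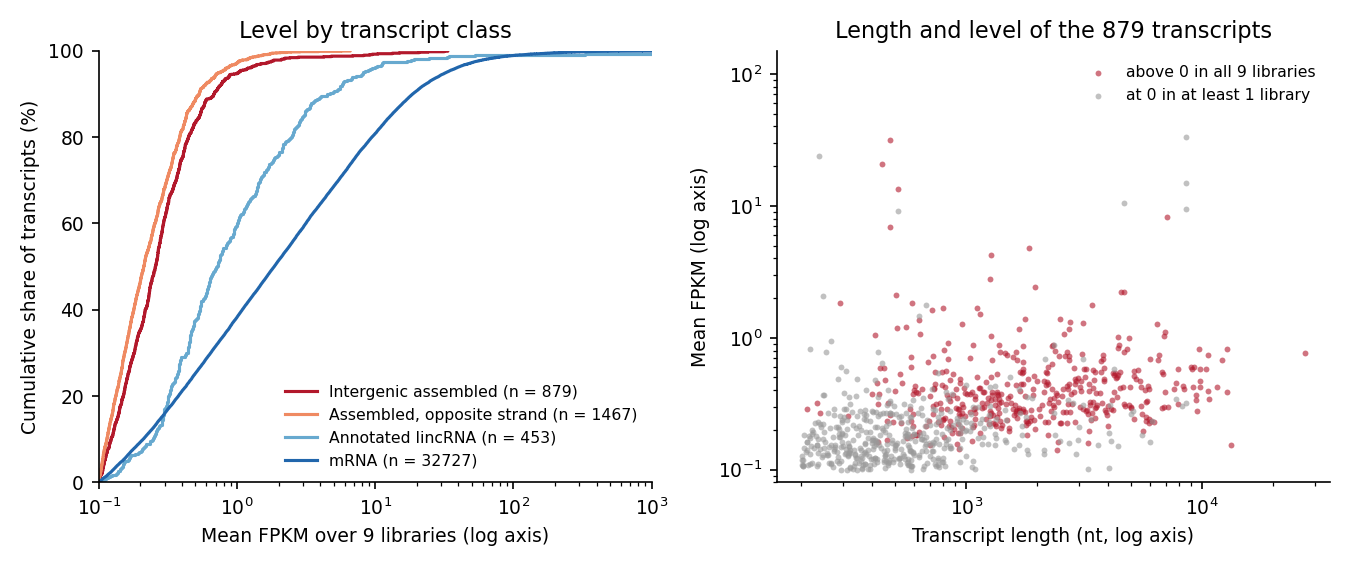
Left, cumulative share (%) of transcripts against the mean FPKM over 9 libraries (log axis) for 4 classes; right, mean FPKM against transcript length (both log axes) for the 879 intergenic assembled transcripts, in red where all 9 libraries were above 0 and in grey otherwise. The intergenic curve (median 0.257 FPKM) lies left of annotated lincRNAs (0.715) and mRNAs (1.86), and short transcripts are mostly grey.

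The transcripts ranged from 201 to 27150 nt in length, with a median of 856 nt and quartiles of 454 and 2190 nt. Their genomic spans ran from 342 to 161898 bp with a median of 4955 bp, and every span exceeded the length by at least 20 bases, so that each transcript contained at least 1 gap. Transcript length was over 90% of the span in 92 of them and under 10% in 235. The compact ones were the longer and more steadily detected, with a median of 3571 nt and a 0 in 11.96% of them, whereas those under 10% had a median of 461 nt and a 0 in 75.3%. By span, 104 transcripts were under 1 kb, 337 between 1 and 5 kb, 312 between 5 and 20 kb, and 126 over 20 kb. Median levels in these bins were 0.168, 0.246, 0.306 and 0.233 FPKM.

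The median distance to the nearest coding gene was 18034 bp, with quartiles of 4863 and 56916 bp. There were 134 transcripts under 1 kb from a coding gene, 92 at 1 to 5 kb, 240 at 5 to 20 kb, 281 at 20 to 100 kb and 132 farther away. Divergent pairs, in which the 5′ ends of transcript and gene face each other, were the commonest arrangement with 286 transcripts. Another 225 lay upstream of the gene on the same strand, 197 downstream on the same strand and 171 convergent to it. Levels differed little with distance, from a median of 0.304 FPKM under 1 kb to 0.251 FPKM beyond 100 kb, while the share with a 0 in some library was 37.3% and 59.9%. Chromosome 10 held 89 of the 879, the highest number.

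An annotated noncoding gene of GENCODE M21 overlapped 245 of the transcripts, in 141 cases on the same strand, and a RefSeq lncRNA overlapped 456. A RefSeq pseudogene overlapped 27 and a RefSeq tRNA 7. Although M21 placed no coding gene there, the body of a RefSeq coding gene overlapped 70. None of the M21 noncoding genes and none of the RefSeq lncRNAs, pseudogenes or coding genes overlapped the remaining 315 (35.8%). The library kits named by the sample records and by the methods differ in whether they keep the strand, so the strand of a transcript is given as the table lists it.

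The extremes of the set came next to coding genes as well as far from them. The longest transcript, XLOC_148872 (chr9:94538734-94566209), had 27150 nt in a span of 27476 bp, 653 bp from 1190002N15Rik in divergent orientation. It measured 1.01, 0.998 and 0.990 FPKM in control, 0.644, 0.644 and 0.666 at 0 hours, and 0.862, 0.593 and 0.468 at 6 hours. All VILI values lay below all control values, yet neither comparison with control passed (adjusted p = 0.502 and 0.383). The summed level of 1190002N15Rik was 47.6 to 50.5 FPKM in control, 29.3 to 31.3 at 0 hours and 20.1 to 40.1 at 6 hours, lower at an unadjusted p under 0.05 at both times (adjusted p = 0.175 and 0.0908). The widest span, 161898 bp for a 937-nt transcript, was that of XLOC_063120 on chromosome 16, which overlapped Mir5118 and measured between 0.250 and 0.878 FPKM in all 9 libraries. The most remote, XLOC_003070, lay 1074861 bp from Cntnap5a and was at 0.435, 0 and 0 FPKM in control, 0, 0 and 0.0853 at 0 hours, and 1.59, 0.226 and 0.843 at 6 hours. Its VILI 6 hours libraries did not overlap those of VILI 0 hours but did overlap control, from which the 6 hours group differed at an unadjusted p of 0.0275 that was lost without any of 4 libraries (replicates 2 and 3 of control, 1 and 3 of 6 hours) and in the fit of only the 6 libraries compared.

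Before the groups were compared, the tissue and the libraries were checked. Surfactant protein C (Sftpc) of alveolar type 2 cells was between 9684 and 12500 FPKM and Ager of type 1 cells between 529 and 792 in all 9 libraries. The summed level of 21 neutrophil genes was 83.9 to 91.6 FPKM in control, 641 to 1144 at 0 hours and 572 to 2351 at 6 hours. The VILI 6 hours libraries were unlike each other: of these 3, replicate 1 had the lowest sum of stress response genes (1296 FPKM) and of erythroid genes (489, against at least 3226 elsewhere), and replicate 3 the highest sums of inflammatory mediators (2989 against at most 821 elsewhere) and of neutrophil genes. Genes of fibroblasts and smooth muscle (18 genes) summed to 1807 to 1866 FPKM in control, 1495 to 1651 at 0 hours and 1091 to 1563 at 6 hours, lower in each VILI library than in any control. Lung transcription factors (31 genes) summed to 863 to 917 FPKM in control, 758 to 794 at 0 hours and 845 to 891 at 6 hours, and macrophage genes (12 genes) to 351 to 440, 496 to 566 and 357 to 781 FPKM. Both sums were apart from control at 0 hours and overlapped it at 6 hours. Sums of erythroid genes did the same (4920 to 5421 FPKM at 0 hours against 3226 to 4186 in control). Those of club and ciliated cells did too (30330 to 33290 against 25420 to 28000). Stress response genes (1296 to 4856 against 1010 to 1093) and inflammatory mediators (487 to 2989 against 314 to 352) were above every control in each VILI library. Sums for alveolar type 1 and 2, endothelial, lymphocyte and cardiac muscle genes overlapped control at both times. The part of cell composition in the results below was not tested. The 879 transcripts together took 0.0952 to 0.204% of the summed FPKM of a library, and 688 to 784 of them were above 0 in each library. The highest share and the lowest number detected were both in replicate 3 of VILI 6 hours.

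Transcripts were compared on log2(FPKM + 0.1) with limma, fitted to all transcripts of at least 0.1 FPKM, and one was called at an unadjusted p under 0.05. Adjusted p-values are by the Benjamini-Hochberg method over 37181 mRNA and lncRNA transcripts. In VILI 0 hours vs control, 93 of the 879 were called (10.6%), against 11.0% of all transcripts tested. They were 49 upregulated (5.57%) and 44 downregulated (5.01%), against 4.71% and 6.29% of all. In VILI 6 hours vs control, 107 were called (12.2%, against 13.3% of all), 36 upregulated (4.10% against 5.74%) and 71 downregulated (8.08% against 7.51%). Between the VILI groups (6 hours against 0 hours), 57 were called (6.48%, against 7.40% of all), 26 higher (2.96% against 3.82%) and 31 lower (3.53% against 3.58%). The shares called were thus near those of all transcripts in each comparison. Fitted to transcripts of at least 1 FPKM, 8, 9 and 2 of 46 were called (17.4%, 19.6% and 4.35%, against 12.8%, 15.6% and 8.35% of all), and with a replicate block 85, 90 and 43 of the 879 (9.67%, 10.2% and 4.89%, against 9.77%, 11.6% and 6.51%).

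By limma, 0 intergenic transcripts passed an adjusted p of 0.05 in any comparison, where 0.0511%, 0.0753% and 0.0215% of all transcripts did. The number rose under some alternatives: to 2, 2 and 1 without a trend in eBayes, to 3 at 0 hours with only the 6 libraries compared, to 1 at 0 hours with a pseudocount of 0.01, to 1 at 6 hours with centred libraries, and to 1 at 6 hours and 1 between the VILI groups with no filter. With 1 library left out it was 0 to 4, 0 to 32 and 0 to 4. The lowest adjusted p was 0.0639 at 0 hours and 0.0572 at 6 hours against control and 0.116 between the VILI groups. Groups without overlap were found for 185 transcripts (21.05%, against 24.2% of all), 145 (16.5% against 18.6%) and 88 (10.01% against 11.4%). When libraries were centred on their medians, which moved the median of all transcripts by 0.12 on the log2 scale, the calls at 0 hours were 60 upregulated and 28 downregulated, compared with 49 and 44 without centring, while 11.6% of all transcripts were called then, 7.49% higher and 4.09% lower. Median log2 fold changes were −0.05, −0.12 and −0.08, beside −0.08, −0.08 and −0.01 for all transcripts.

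The count at 6 hours rested on single libraries. Without replicate 1 of VILI 6 hours, 204 of the 879 were called against control and 32 passed adjustment, where 24.3% and 5.61% of all transcripts did; without replicate 3 the count was 68 (9.43% of all transcripts). Between the VILI groups (6 hours against 0 hours) the count was 111 without replicate 1 (14.3% of all transcripts), 36 without replicate 3 (6.88%) and 32 without replicate 2 of VILI 0 hours (5.88%).

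Both sides of the comparison with control shared the same 3 control libraries. Of the called transcripts, 33 were called against control at both times (3.75%, against 4.74% of all transcripts), 15 higher (1.71% against 2.28%) and 18 lower (2.05% against 2.43%). In at least 1 of the 3 comparisons 191 were called (21.7% against 22.0%). Transcripts in which 1 group was listed at 0 throughout made up 13, 19 and 9 of the calls in the 3 comparisons, and for these the values are given without a fold change.

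By distance, 6.72% of the transcripts under 1 kb from a coding gene were called at 0 hours and 7.61% at 1 to 5 kb. The shares were 9.17% at 5 to 20 kb, 12.8% at 20 to 100 kb and 14.4% beyond 100 kb, against 11.0% of all transcripts tested. The end bins rested on few calls, 9 of 134 transcripts under 1 kb and 19 of 132 beyond 100 kb. At 6 hours the shares did not rise with distance: 12.7%, 7.61%, 15.4%, 9.61% and 14.4%, against 13.3% of all. By span, 14 of 19 calls of transcripts over 20 kb were lower at 0 hours and 15 of 17 at 6 hours (of all transcripts called, 42.8% and 43.3% were higher and the rest lower). Those of 5 to 20 kb were 20 higher and 13 lower at 0 hours and 17 and 19 at 6 hours. Calls of 1 to 5 kb were 20 higher and 14 lower at 0 hours but 13 and 32 at 6 hours. Under 1 kb they were 4 and 3 at 0 hours and 4 and 5 at 6 hours. Median log2 fold changes of the transcripts over 20 kb were −0.24 and −0.36. Divergent transcripts had 16 higher and 17 lower calls at 0 hours but 5 and 27 at 6 hours. Same-strand downstream transcripts had 8 and 12 at 0 hours and 11 and 12 at 6 hours. Same-strand upstream ones had 20 and 13, then 13 and 20, and convergent ones 5 and 2, then 7 and 12. These bins share the same libraries, and the differences between them were not tested.

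**Figure D2:**
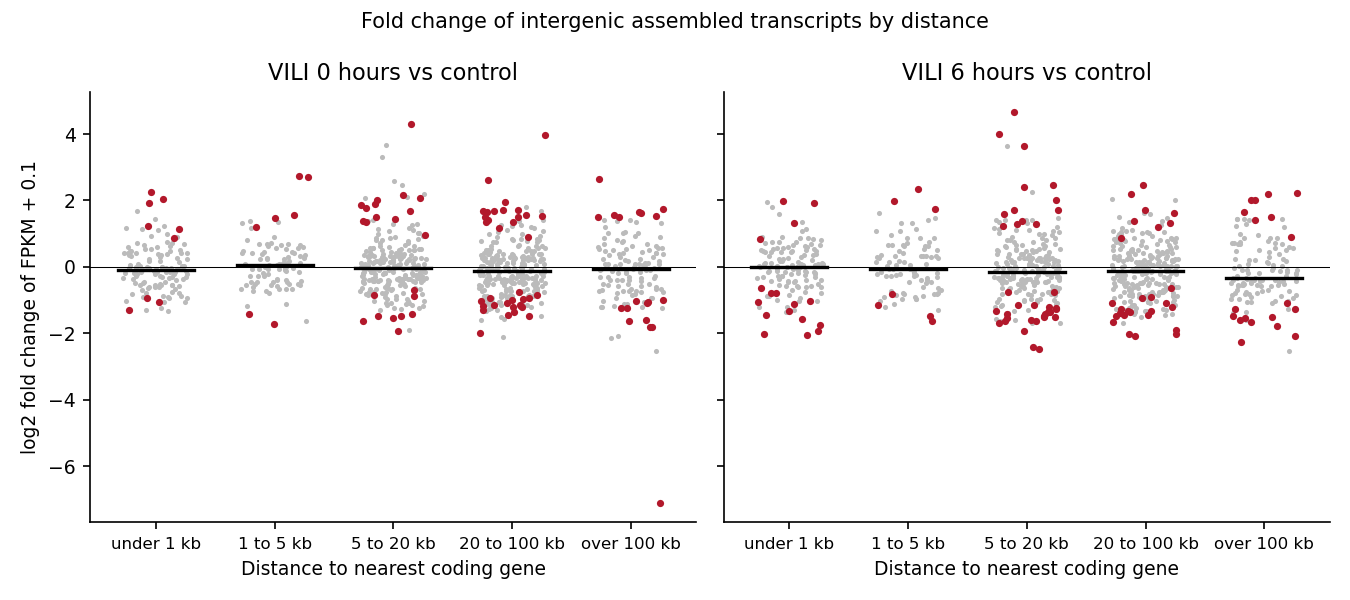
log2 fold change of each intergenic assembled transcript (points) in bins of distance to the nearest coding gene, at both times against control; red points have an unadjusted p under 0.05 and black lines are bin medians. Medians lie between −0.33 and 0.06, and called transcripts occur in every bin in both directions.

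The assembled transcripts on the opposite strand of coding genes, the most similar class, had median log2 fold changes of 0.15 at 0 hours and 0.34 at 6 hours and 77.6% of their calls at 6 hours were higher. Annotated lincRNAs had medians of −0.15 and −0.30, with 15.4% of their calls at 6 hours higher. The intergenic transcripts, with 33.6% higher, lay between them. The difference between classes was not tested.

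The fold change of a transcript was related to that of its nearest coding gene at short range at 6 hours, and less clearly so at 0 hours. Over pairs with a gene of at least 1 FPKM, Pearson's r between both fold changes at 6 hours was 0.38 under 1 kb (121 pairs), 0.38 at 1 to 5 kb (81), 0.12 at 5 to 20 kb (199), 0.06 at 20 to 100 kb (231) and −0.16 beyond 100 kb (95). Spearman's rho was 0.43, 0.33, 0.18, 0.06 and −0.16 in the same order. At 0 hours r was 0.30, 0.29, 0.11, 0.23 and −0.04, and rho was 0.26, 0.16, 0.28, 0.20 and −0.05, with no such order. Under 5 kb, r at 6 hours was 0.54 over 57 downstream same-strand pairs, 0.41 over 49 upstream same-strand pairs and 0.42 over 78 divergent pairs, but −0.09 over 18 convergent pairs. Spearman's rho was 0.53, 0.49, 0.30 and −0.07 in the same order. At 0 hours r was 0.40, 0.03, 0.40 and 0.30, and rho 0.52, 0.03, 0.18 and 0.25. All pairs come from the same libraries and some share a gene, so these values describe the set and have no p. Over all 727 pairs the direction was shared in 56.4% at 0 hours and 55.4% at 6 hours, and over called transcripts in 54 of 81 and 57 of 86. Where transcript and gene were both called, it was shared in 24 of 27 pairs at 0 hours, 19 of 25 at 6 hours and 4 of 8 between the VILI groups.

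**Figure D3:**
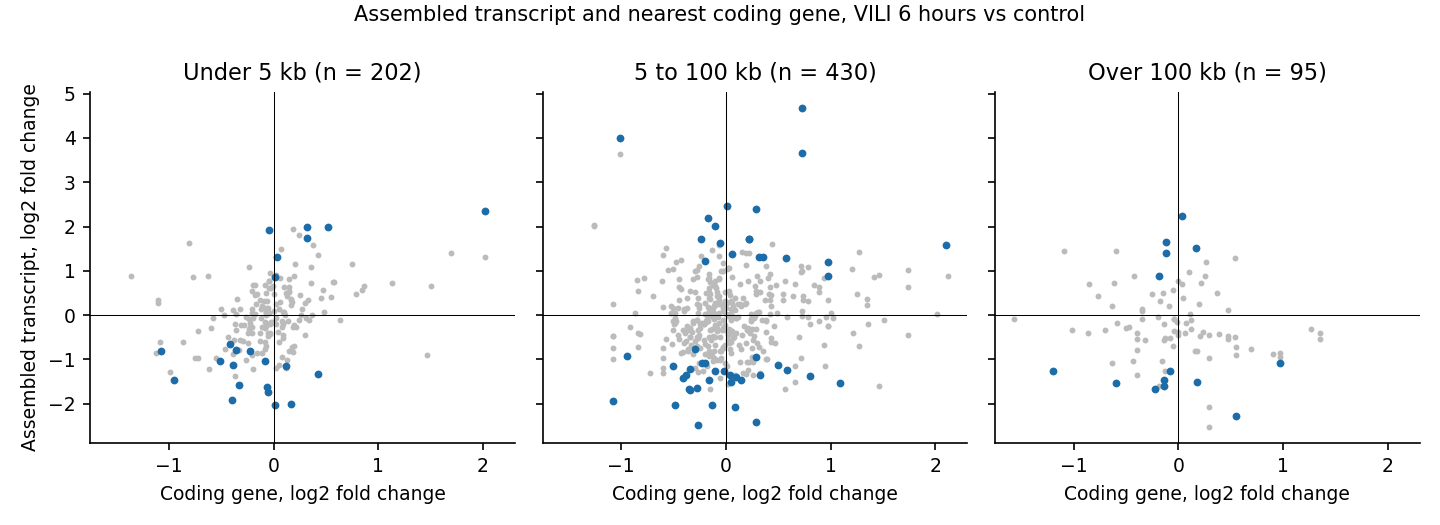
log2 fold change at 6 hours of each intergenic assembled transcript (vertical axis) against that of its nearest coding gene (horizontal axis, genes of at least 1 FPKM), in 3 ranges of distance; blue points are transcripts with an unadjusted p under 0.05. Points lean to the diagonal under 5 kb, with r of 0.38 in each of both bins there, and do not beyond 100 kb (r = −0.16).

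XLOC_039306.1, the transcript with the lowest p at 0 hours, has as its neighbour Nfil3, which encodes a bZIP transcription factor induced by cytokines and active in immune cells. The 464-nt transcript (chr13:52985985-52999625) starts 4912 bp from Nfil3 in divergent orientation. Its level was 0, 0 and 0.0652 FPKM in control, 0.667, 0.778 and 0.594 at 0 hours, and 0.514, 0.607 and 0.394 at 6 hours. All 6 VILI libraries lay above the highest control. The log2 fold change was 2.71 ± 0.34 (SE) at 0 hours (adjusted p = 0.0639) and 2.34 ± 0.34 at 6 hours (adjusted p = 0.0759). With pseudocounts of 0.01 and 1 it was 5.13 and 0.716 at 0 hours, so its size depends on the pseudocount. Nfil3 itself measured 1.99, 2.90 and 2.36 FPKM in control, 12.1, 5.81 and 16.5 at 0 hours, and 7.68, 7.93 and 16.4 at 6 hours. Its fold change was 2.09 ± 0.39 and 2.02 ± 0.39 on the log2 scale, with adjusted p of 0.0658 and 0.0584. The other row, XLOC_039306.2, was between 0 and 0.131 FPKM in control and between 0.0616 and 0.699 in the VILI libraries, and its groups overlapped. With the rows of each locus summed and adjusted over 19272 loci and genes, the locus passed at both times (adjusted p = 0.0420 and 0.0387), in a fit where 0.280% and 0.706% of all did. In that fit 2 of the 771 intergenic loci passed at each time.

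A second locus passed that summed fit at 0 hours. XLOC_138424 (734 nt, chr7:140995001-141004629) lies 4957 bp downstream of Ifitm3, an interferon-induced membrane protein, on the same strand. It was listed at 0 in the 3 control libraries, at 0.352, 0.634 and 0.810 FPKM at 0 hours, and at 0.162, 0.372 and 0.1998 at 6 hours. Its adjusted p at 0 hours was 0.103 as a transcript and 0.0341 in the summed fit. The locus has only 1 row, so its values and fold change were the same in both fits. Ifitm3 did not follow it: its level was 210 to 218 FPKM in control and 182 to 215 at 0 hours, and 195 and 221 in 2 of the VILI 6 hours libraries but 452 in replicate 3. The third, XLOC_071535 (948 nt, chromosome 18), fell from 0.353, 0.548 and 0.397 FPKM in control to 0.0797, 0.2002 and 0.193 at 0 hours and 0.0290, 0 and 0.0532 at 6 hours. It passed the summed fit at 6 hours (adjusted p = 0.0418) and lies 97678 bp from Rbbp8, a DNA repair factor.

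Transcripts with an unadjusted p under 0.01 against control at both times, a group chosen after the values were seen, numbered 7 (0.796%, against 1.13% of all transcripts, of which 3.32% were under 0.01 at 0 hours and 3.85% at 6 hours). Besides XLOC_039306.1 and XLOC_138424 they were 3 that rose and 2 that fell. XLOC_006536 starts 105 bp from Cnnm4, a magnesium transporter, in divergent orientation. It was at 0, 0.102 and 0 FPKM in control, 0.780, 0.543 and 0.297 at 0 hours, and 0.251, 0.469 and 0.519 at 6 hours. Cnnm4 differed far less, with 2.42 to 2.63 FPKM in control, 2.58 to 3.21 at 0 hours and 2.76 to 3.88 at 6 hours, and did not pass.

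Among the others, XLOC_119215 had groups far apart. This 2696-nt transcript on chromosome 5 measured 0.103, 0.128 and 0.0427 FPKM in control, 0.403, 0.430 and 0.501 at 0 hours, and 0.345, 0.397 and 0.459 at 6 hours. Its log2 fold changes were 1.53 ± 0.32 and 1.41 ± 0.32 (adjusted p = 0.190 and 0.170). Its nearest coding gene, 2410131K14Rik at 110372 bp, stayed between 2.57 and 3.24 FPKM in all libraries. XLOC_029840, 325591 bp from the potassium channel gene Kcnj2, rose from 0, 0.1 and 0.0281 FPKM to 0.314, 0.331 and 0.360 at 0 hours and 0.203, 0.522 and 0.211 at 6 hours. Kcnj2 was higher at 0 hours, at 10.3 to 16.9 FPKM against 6.38 to 9.58 in control, and overlapped control at 6 hours.

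XLOC_057501 fell from 0.505, 0.384 and 0.952 FPKM in control to 0.0864, 0.0543 and 0.148 at 0 hours and 0.160, 0.0197 and 0.0303 at 6 hours. It lies 452822 bp from Fam19a5, which encodes a secreted chemokine-like protein and which stayed between 0.454 and 0.647 FPKM. XLOC_041515 fell from 0.438, 0.234 and 0.519 FPKM to 0.0745, 0.129 and 0 at 0 hours and was listed at 0 in all 3 libraries at 6 hours (adjusted p = 0.133). It lies 269984 bp from Klf6, a zinc-finger factor of injury responses, which was at 47.6 to 58.7 FPKM in control. Klf6 was at 62.3 to 70.4 FPKM at 0 hours, above every control but not called. At 6 hours Klf6 was called higher, at 57.7 to 93.8 FPKM, with replicate 1 within the control range.

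**Figure D4:**
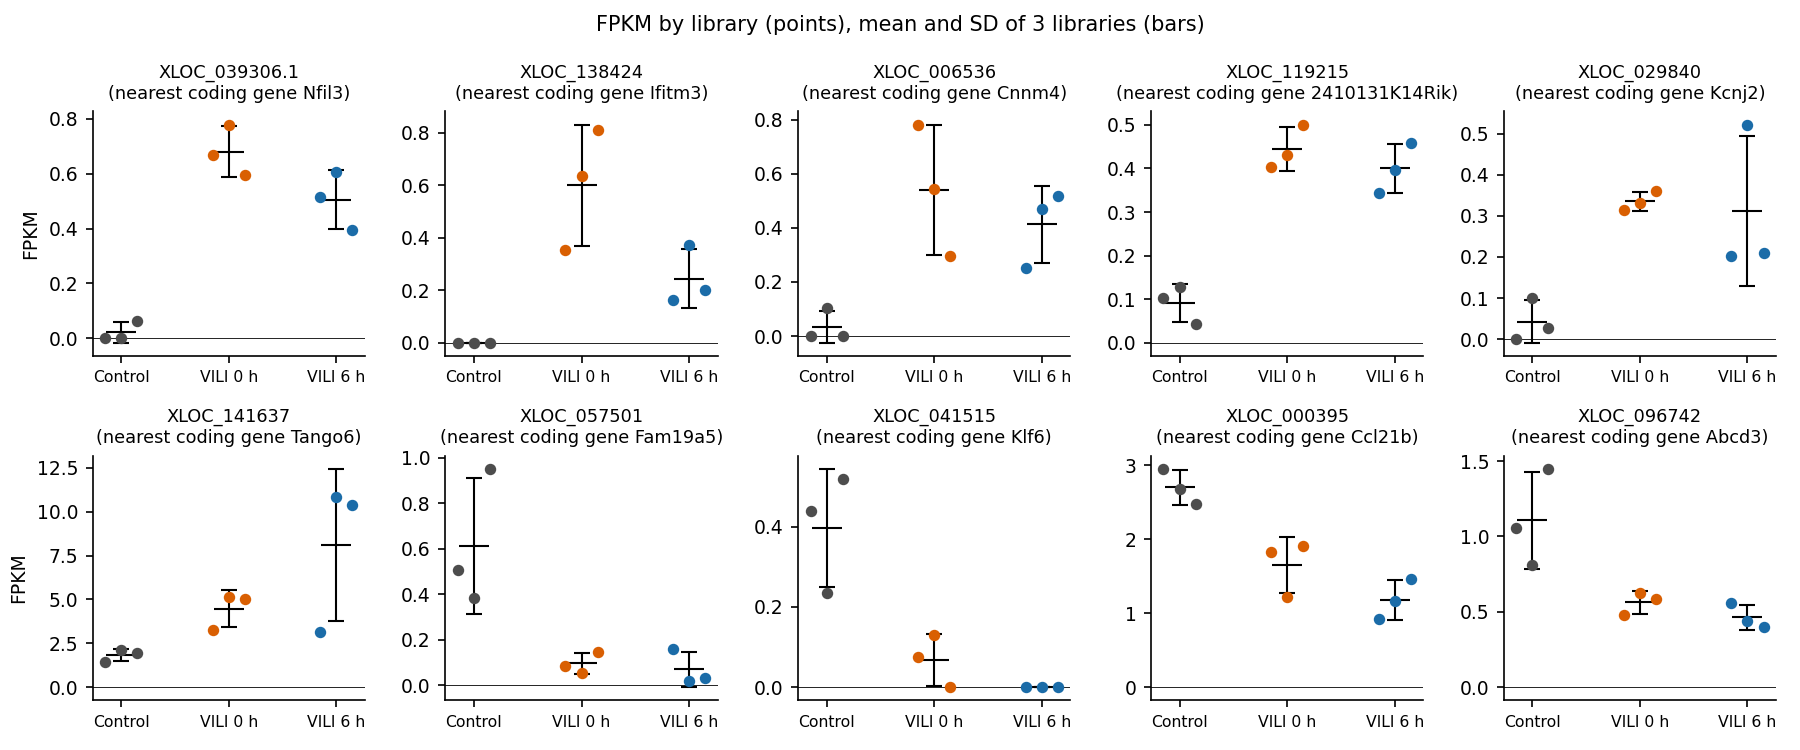
FPKM of 10 intergenic assembled transcripts in each library (points, 3 per group), with the mean and SD of the group (bars). In the upper row and in XLOC_141637 all VILI libraries lie above all control libraries, and in the other 4 all lie below.

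At the promoters shown above, further transcripts moved at 1 or both times. XLOC_024851 was at 0, 0 and 0.0512 FPKM in control, 0.252, 0.205 and 0.583 at 0 hours, and 0.344, 0.125 and 0.127 at 6 hours. It lies 18034 bp upstream of Gna13, a G-protein subunit of endothelial and platelet signalling. Gna13 was at 34.0 to 34.9 FPKM in control, 37.3 to 51.0 at 0 hours and 35.5 to 52.8 at 6 hours. Against control Gna13 was called by limma only at 6 hours (unadjusted p = 0.0474), where it did not pass adjustment (adjusted p = 0.239). XLOC_135261, 18987 bp from Tyrobp, the adaptor of activating receptors on myeloid cells, was at 0.111, 0.111 and 0.0326 FPKM in control and rose to 0.492, 0.322 and 0.329 at 0 hours, while at 6 hours its 0.0924, 0.316 and 0.202 overlapped control. Tyrobp was 45.2 to 56.8 FPKM in control and 71.4 to 106 in the VILI libraries. XLOC_096742, 35853 bp from the peroxisomal transporter gene Abcd3, fell from 1.06, 0.813 and 1.45 FPKM to 0.476, 0.625 and 0.583 at 0 hours and 0.557, 0.438 and 0.398 at 6 hours. Its log2 fold changes were −0.84 ± 0.29 and −1.07 ± 0.29 (adjusted p = 0.365 and 0.233), while Abcd3 was 53.6 to 57.2 FPKM in control and 43.2 to 55.9 in the VILI libraries. The call of XLOC_096742 at 0 hours was lost without replicate 3 of control or 1 of 0 hours, and that of XLOC_024851 at 6 hours without replicate 1 or 2 of control or 1 of 6 hours and with a pseudocount of 1.

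XLOC_068983.2, whose start was 26 bases from that of Gm30509, lies upstream of Sik1, a salt-inducible kinase of the cAMP response. It was at 0.0316, 0 and 0.0285 FPKM in control, 0.174, 0.292 and 0.688 at 0 hours, and 0.173, 0.0628 and 0.0128 at 6 hours, where 2 of 3 libraries were still above every control. Row 1 overlapped control, at 0 to 0.325 FPKM against 0 to 0.531 at 0 hours, and the summed locus did not pass at 0 hours (adjusted p = 0.410). Sik1 had values of 25.4 to 30.2 FPKM in control, 32.9 to 110 at 0 hours and 29.8 to 73.6 at 6 hours. XLOC_016588, 96349 bp from Sgk1, a stress-induced kinase, was also called at 0 hours and not at 6 hours. It stood at 0 in all control libraries, at 0.176, 0.415 and 0.299 FPKM at 0 hours and at 0.0548, 0 and 0.0747 at 6 hours. XLOC_016588 met the minimum of 0.1 FPKM only through its 0 hours values, so its p is no separate support for the difference. Sgk1 was at 40.2 to 41.4 FPKM in control, 98.0, 55.6 and 97.1 at 0 hours, and 42.1, 133 and 164 at 6 hours. Against control Sgk1 was called by limma only at 6 hours (unadjusted p = 0.0183), where it did not pass adjustment (adjusted p = 0.171).

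Falls at annotated starts were also seen. XLOC_118760 (Gm42150) fell from 0.357, 0.698 and 0.341 FPKM in control to 0.0895, 0.0501 and 0 at 0 hours and 0.199, 0.0777 and 0 at 6 hours, a call lost at 6 hours with a pseudocount of 0.01. XLOC_057511 (Gm35831) and XLOC_019776.2 (Gm29916) were above 0 in all control libraries, at 0.0882 to 0.813 and 0.168 to 0.521 FPKM, and were listed at 0 in all 3 VILI 6 hours libraries. XLOC_019776.1, the other row of its locus, overlapped control at both times. At XLOC_020111 (Gm33861), row 1, with 11601 nt, fell from 0.756, 0.928 and 0.764 FPKM to 0.186, 0.259 and 0.0767 at 0 hours and 0.5004, 0.275 and 0.0583 at 6 hours. Row 3 fell from 0.743, 1.20 and 0.634 to 0.263, 0.221 and 0.150 FPKM at 6 hours, and row 2 overlapped control throughout. The call of row 1 at 6 hours was lost without replicate 2 of control or 3 of 6 hours.

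XLOC_015329 showed a difference between rows that its sum did not show. The 3 rows start within 8 bases of each other on chromosome 10, 18616 to 18624 bp from Rap1b, a small GTPase of cell adhesion, and differ in length. Row 2 (1668 nt) was at 0.340, 0.706 and 0.711 FPKM in control and 0.688, 0.510 and 0.645 at 0 hours, but at 0.0873, 0 and 0 at 6 hours. Row 3 (1596 nt) was listed at 0 in the 6 libraries of control and VILI 0 hours and at 0.394, 0.419 and 0.476 FPKM at 6 hours. Adjusted p at 6 hours against control was 0.0940 for row 2 and 0.0572 for row 3, the lowest of all intergenic transcripts. Row 3 met the minimum of 0.1 FPKM only through its 6 hours values, so its p is no separate support for the difference. The sum of the rows was 0.858, 0.735 and 0.711 FPKM in control and 0.716, 0.662 and 0.595 at 6 hours, and its log2 fold change of −0.20 ± 0.24 did not pass (adjusted p = 0.664). The rows overlap almost wholly, and how the quantification divided fragments between them could not be examined in FPKM values.

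**Figure D5:**
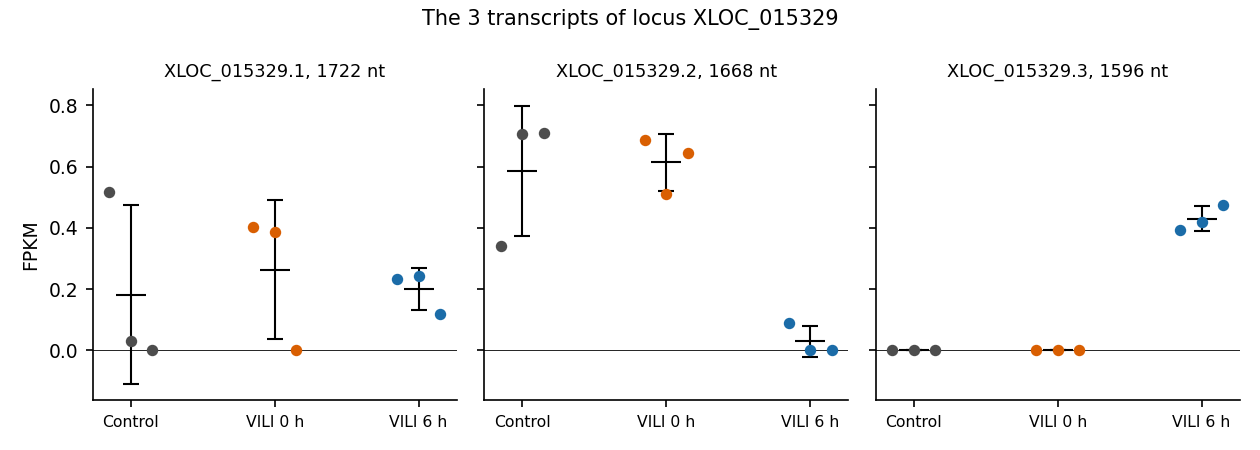
FPKM of the 3 rows of locus XLOC_015329 in each library (points), with the mean and SD of 3 libraries (bars). At 6 hours row 2 lies at 0 to 0.0873 FPKM and row 3, at 0 in every other library, at 0.394 to 0.476 FPKM.

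Of the more abundant intergenic transcripts, those of at least 1 FPKM that were called with no 0 and no overlap between groups, 4 rose and 2 fell at 0 hours (8.70% and 4.35% of 46, against 5.27% and 6.58% of all transcripts of at least 1 FPKM). At 6 hours 3 rose and 5 fell (6.52% and 10.9%, against 5.35% and 7.60%). XLOC_141637 (1845 nt, chr8:106676275-106682954) ends 114 bp before Tango6, a gene of Golgi transport, on the same strand. It was at 1.41, 2.103 and 1.97 FPKM in control, 3.27, 5.16 and 4.999 at 0 hours, and 3.12, 10.8 and 10.4 at 6 hours. The log2 fold change was 1.24 ± 0.46 at 0 hours and 1.92 ± 0.46 at 6 hours (adjusted p = 0.382 and 0.189). Tango6 stayed between 2.90 and 4.40 FPKM in all libraries. The call at 0 hours was lost without replicate 1 of control or replicate 2 or 3 of 0 hours.

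XLOC_158368 (506 nt, X chromosome) rose from 0.846, 0.513 and 0.449 FPKM to 3.46, 1.44 and 2.15 at 0 hours and 0.968, 3.19 and 6.01 at 6 hours. XLOC_105889 (473 nt, chromosome 4), 17862 bp downstream of Ahdc1, was at 12.3, 7.86 and 14.97 FPKM in control and 40.2, 29.2 and 51.7 at 0 hours. At 6 hours it was at 54.4 and 65.3 FPKM in replicates 2 and 3 but at 8.03, within the control range, in replicate 1. XLOC_129274, whose nearest coding gene, Ipo8, is 130395 bp away, rose from 0.703, 0.710 and 0.854 to 0.904, 2.03 and 1.74 FPKM at 6 hours. Single libraries ended the calls of XLOC_158368 at 0 hours (3 of 9 libraries, each left out in turn), of XLOC_105889 at 0 hours (5 of 9), of XLOC_129274 (5 of 9) and of XLOC_079185.3, described next, at 0 hours (3 of 9). In XLOC_079185.3, a 959-nt transcript within the noncoding gene C330002G04Rik, a rise was called at 0 hours: 0.771, 0.939 and 1.04 FPKM in control, 1.39, 2.23 and 1.86 at 0 hours, and 0.629, 1.17 and 1.38 at 6 hours, where 2 libraries were also above every control. Its rows 1 and 2 did not pass at either time, and the table holds 4 rows of the locus, of which 1 was under 0.1 FPKM.

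XLOC_000395 (588 nt), on the unplaced scaffold GL456350.1, lies 10587 bp from Ccl21b, a chemokine that guides dendritic cells and T cells to lymphatic vessels. It fell from 2.95, 2.68 and 2.48 FPKM in control to 1.83, 1.22 and 1.90 at 0 hours and 0.924, 1.16 and 1.46 at 6 hours, log2 fold changes of −0.70 ± 0.25 and −1.15 ± 0.25 (adjusted p = 0.369 and 0.160). Ccl21b overlapped control at 0 hours, at 3.72 to 5.84 FPKM against 5.13 to 7.05, and did not pass at 6 hours (3.39 to 5.59). The call of XLOC_000395 at 0 hours was lost without replicate 1 or 2 of control or 2 of 0 hours, and with centred libraries. XLOC_040983 on chromosome 13 fell at 0 hours, from 3.26, 2.91 and 1.62 FPKM to 1.13, 0.732 and 1.17, and was at 1.65, 1.496 and 2.59 at 6 hours, within or near the control range. Its difference between the VILI groups (0.84 on the log2 scale, adjusted p = 0.651) was lost without any of 4 libraries, with a pseudocount of 1 and with a replicate block.

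The other falls at 6 hours were smaller. XLOC_106903 fell from 2.69, 2.57 and 2.60 FPKM in control to 2.48, 1.18 and 1.06, and its nearest coding gene, AW011738, from 5.21, 4.29 and 4.76 to 4.59, 1.63 and 1.38, although replicate 1 of that gene was within the control range. RefSeq places the coding gene Perm1 over this transcript. XLOC_027935, 346 bp upstream of Pfas, an enzyme of purine synthesis, fell from 2.22, 1.83 and 2.14 FPKM to 1.29, 1.30 and 1.24. XLOC_146755 (Gm39317) and XLOC_139180, which lies under the RefSeq coding gene 4930467E23Rik, fell by 0.74 and 0.62 on the log2 scale, both with an SE of at most 0.32. Leaving out single libraries ended these calls at 6 hours in 6 of 9 cases for XLOC_106903 and XLOC_146755, 3 of 9 for XLOC_027935 and 2 of 9 for XLOC_139180. The call of XLOC_146755 was also lost with no filter, with a mean of at least 1 FPKM, with centring and with a replicate block, and that of XLOC_106903 with the block and in the fit of 6 libraries.

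The most abundant intergenic transcripts varied widely between libraries. The 8 with the highest mean made up 12.5% of the summed intergenic FPKM in 1 control library and 51.9% in replicate 3 of VILI 6 hours. The 4 rows of XLOC_082990 (chromosome 2, 12217 bp upstream of the splicing factor gene Hnrnpa3) were among them, and their summed level was 6.46, 21.9 and 17.9 FPKM in control, 108, 38.8 and 66.8 at 0 hours, and 29.3, 71.9 and 255 at 6 hours. The sum was higher in every VILI library than in every control library, with log2 fold changes of 2.25 ± 0.74 and 2.57 ± 0.74 (adjusted p = 0.193 and 0.123). Between rows the libraries disagreed: row 2, the highest, was at 0, 4.08 and 13.3 FPKM in control and 23.7 to 115 in VILI libraries, whereas rows 3 and 4 were listed at 0 in replicate 1 of VILI 6 hours.

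XLOC_039374.2 (513 nt), 15689 bp downstream of Fgfr4, was at 0.520, 0.743 and 1.37 FPKM in control, 14.2, 0.575 and 17.1 at 0 hours, and 0.848, 25.8 and 58.7 at 6 hours, so both VILI groups contained a library at the control level. Its row 1 was also lowest among the VILI libraries in those 2. XLOC_018117.1 (238 nt), 357472 bp from Zwint, had values of 2.58, 73.4 and 12.8 FPKM in control, 0 in all 3 VILI 0 hours libraries, and 89.1, 38.3 and 0 at 6 hours; its row 2 was above 0 only in control replicate 3. XLOC_051235, which overlaps the pseudogene Gm5854, was at 11.9 to 22.3 FPKM in control, 16.3 to 36.1 at 0 hours and 19.2 to 21.02 at 6 hours. Whether its reads were shared with a related gene was not tested.

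Among 13 lists of genes of lung cell types and the injury response, 17 intergenic transcripts lay within 50 kb of a listed gene that was their nearest. Of these, 0 were called at 0 hours and 3 at 6 hours, all lower, where 13.3% of all transcripts were called and 7.51% were lower, so 3 of 17 is no more than a description. XLOC_068666, 13317 bp from Dusp1, a phosphatase that limits stress kinase signalling, fell from 0.446, 0.299 and 0.393 FPKM in control to 0.169, 0 and 0.0692 at 6 hours. XLOC_119296, near Tbx5, a developmental factor of heart and lung, fell from 0.412, 0.622 and 0.330 to 0.332, 0.115 and 0.0632 FPKM, and XLOC_117981, upstream of the type 1 cell gene Hopx, from 0.303, 0.353 and 0.204 to 0.111, 0.0935 and 0.0954 FPKM. Around Nfkbia, the inhibitor of NF-κB, 3 transcripts of 0.168 to 0.291 FPKM lay within 25 kb and did not pass, while Nfkbia was higher by 1.44 and 1.74 on the log2 scale. XLOC_019246 (9680 nt), 179 bp from Dusp6, an ERK phosphatase, in divergent orientation, was at 0.985, 0.884 and 0.734 FPKM in control, 0.917, 0.738 and 0.459 at 0 hours, and 0.866, 1.11 and 0.658 at 6 hours, and its groups overlapped.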

How the data were processed

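Lung RNA of 9 mice, 3 per group, was analysed, with groups taken from the sample records. The deposited values are FPKM per transcript: the authors removed rRNA, aligned reads with TopHat 2.0.9 (Bowtie2 2.0.6) to GRCm38 per the labels, built transcripts using Scripture and Cufflinks, and obtained FPKM from Cuffdiff 2.1.1. Read counts and depth were not used here, so precision is known only from the spread of 3 replicates, each 1 mouse. The kit and sequencer named in the records and in the methods differ.

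Assembled rows were placed by their listed coordinates against GENCODE M21. Log2(FPKM + 0.1) was fitted with limma 3.58.1 in R 4.3.3 (eBayes with a trend, group as the only factor), after the procedure was tested on simulated data. This scale understates the fold change of a transcript near 0.1 FPKM. Some named transcripts met the minimum of 0.1 FPKM only through the group in which they were high, so their p-values are no separate support. Nearest coding genes were tested on FPKM summed per gene. A p under 0.05 was called, the threshold of the methods. The listed values were computed in Python 3.11.15.

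The members, gene lists and rules were chosen with earlier results of these data known. Transcripts named were those with an adjusted p under 0.05 (none); per comparison the 5 largest rises and falls of at least 1 FPKM, called, with no overlap and no 0; the 8 with the highest mean; those of at least 0.5 FPKM within 50 kb of a listed gene; and the longest and the most remote. Transcripts under 1 FPKM named by p or by an annotated start were chosen after their values were seen. Alternatives were pseudocounts of 0.01 and 1, a replicate block, no filter or a mean of at least 1 FPKM, no trend in eBayes, centring on library medians, each library left out, a fit of only the 6 libraries in question, at least 5 kb from a coding gene, and FPKM summed per locus. Polyadenylation signals and windows at loci without a RefSeq start were not analysed here. A transcript whose result is withheld is not reported here.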

Additional observations from a re-analysis of the deposited data

How the results depend on the processing

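Counts of called transcripts stayed within 1.5 times of those reported under pseudocounts of 0.01 and 1, no filter, centring, only the 6 libraries compared, eBayes without a trend, a distance of at least 5 kb and sums per locus. With a mean of at least 1 FPKM, 8, 9 and 2 of 46 transcripts were called at 0 hours, at 6 hours and between the VILI groups. These were 17.4%, 19.6% and 4.35%, against 12.8%, 15.6% and 8.35% of all transcripts in that fit. The median log2 fold changes against control were 0.131 and 0.113, so both changed sign, fewer transcripts being tested. Centring added 0.123 to every log2 fold change at 0 hours, so the median became 0.0684. With each library left out, the counts ran from 68 to 115 at 0 hours, 68 to 204 at 6 hours and 32 to 111 between the VILI groups, and the medians from −0.0893 to −0.0332, −0.167 to −0.0828 and −0.142 to −0.0226. A replicate block gave 85, 90 and 43 calls (9.67%, 10.2% and 4.89%, against 9.77%, 11.6% and 6.51% of all transcripts). The replicate numbers come from titles and did not pair the libraries: correlations of deviations of same-numbered libraries ran from −0.159 to 0.0265. No direction of a called result of a named transcript reversed. Of 62 such results, 36 were called under all alternatives run, and 50 under those that kept all 9 libraries. Read totals were not used here, and the part of depth in the exact zeros was not tested.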
